A study of Mus musculus with 12 samples.

Results

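The neural crest specifier genes, as listed here, are transcription factor genes that act at the border of the neural plate or in the forming and migrating neural crest. Their 10 members here are Msx1, Tfap2a, Tfap2b, Dlx2, Foxd3, Sox9, Sox10, Snai1, Snai2 and Twist1. They were chosen by symbol: a row of the count table belonged to the group where its transcript carried a listed symbol in the GENCODE annotation of GRCm38. Each of the 10 symbols matched 1 of the 22467 transcripts in the table, and all 10 were among the 12576 transcripts that passed the filter on low counts, which asked for over 0.75 CPM (counts relative to a common library size) in 3 or more of the ribosome profiling libraries. The data came from 6 whole mouse embryos at E8.5, 3 Rpl10a +/+ (wild-type) and 3 Rpl10a LOF/LOF. The LOF (loss-of-function) allele, made with CRISPR/Cas9 in mice, carries a deletion in the first intron and leads to a longer RPL10A/uL1 protein with extra amino acids behind its first methionine. It is therefore a changed protein of the large ribosomal subunit and not a deletion of the gene, and it is present in every tissue of the embryo. Each embryo was lysed on its own and gave 1 library of ribosome-protected fragments (RPF), the stretches of mRNA that ribosomes shield from nuclease, and 1 RNA-seq library from the same lysate (RNA), 12 libraries in all.

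The neural crest is a migratory cell population of vertebrate embryos that forms where the neural plate meets the surface ectoderm, leaves the neural tube by an epithelial-to-mesenchymal transition, and gives rise to peripheral neurons and glia, pigment cells, and much of the bone and connective tissue of the face. Signals such as Wnt and BMP induce border genes (Msx1, Tfap2a), which act upstream of specifier genes (Foxd3, Sox9, Sox10, Snai2), and SNAI1, SNAI2 and TWIST1 repress epithelial genes such as the one for E-cadherin. At E8.5 the cranial crest of the mouse is forming and starting to move. Most members are not restricted to the crest: Tfap2a is also on in surface ectoderm, Snai1 and Twist1 in mesoderm, and Sox9 in other ectodermal and mesodermal sites. In lysates of whole embryos, fewer cells of a type cannot be told apart from less RNA per cell.

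RPF libraries held 7041357 to 10863499 counts and RNA libraries 9132521 to 26561843. The members had between 21 and 631 RPF counts and between 15 and 2353 RNA counts in a library, with Dlx2 the lowest in both. Rpl10a itself, the mutated gene, fell in LOF embryos by 0.64 on the log2 scale in RPF (SE 0.07, edgeR FDR 0.0069) and by 0.23 in RNA (SE 0.06, edgeR FDR 0.068), with no overlap between genotypes. The summed RNA of 4 Y-linked genes was 177 to 189 CPM in the 3 wild-type embryos and 173 CPM in LOF embryo 2, but 8.72 CPM in LOF embryo 1 and 2.57 CPM in LOF embryo 3. Y-linked counts were thus low in 2 LOF embryos and in no wild-type embryo, so that sex and genotype cannot be fully told apart. In the fits below with Y-linked counts as a covariate, the genotype term therefore rests mainly on LOF embryo 2 set against the wild type.

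The members lie on 9 chromosomes of GRCm38, and all are protein-coding genes whose transcripts were counted over their exons. Tfap2a lies on chromosome 13 from 40715675 to 40733823 (minus strand, 7 exons) and its relative Tfap2b on chromosome 1 from 19208914 to 19238576 (plus strand, 7 exons). Snai1 lies on chromosome 2 from 167538195 to 167542814 and Snai2 on chromosome 16 from 14705852 to 14709385, both on the plus strand with 3 exons. Sox9 lies on chromosome 11 from 112782224 to 112787760 (plus strand, 3 exons), and Sox10 on chromosome 15 from 79154908 to 79165240 (minus strand, 5 exons). Foxd3 is a gene of 1 exon on chromosome 4 from 99656299 to 99658622 (plus strand). Twist1 lies on chromosome 12 from 33957671 to 33959829 (plus strand, 2 exons), Msx1 on chromosome 5 from 37820485 to 37824583 (minus strand, 2 exons), and Dlx2 on chromosome 2 from 71543408 to 71546754 (minus strand, 3 exons).

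As transcripts, the members were compact and rich in G and C. Their coding sequences had a median GC content of 64.4%, against 53.2% over all transcripts tested, and 9 of the 10 were above that value. Each member had fewer exons than the overall median of 9.0. The 5'UTR was longer than the overall median of 175 nt in 7 members. At least 1 ATG lay upstream of the start codon in 7 members, with 6 in Tfap2b, where the median of all transcripts tested was 0. Tfap2b differed from the rest in both untranslated regions: its 5'UTR had the lowest GC content of the members (46.9%) and its 3'UTR was the longest (4229 nt). Twist1 had the 5'UTR richest in GC (80.8%).

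The bases around the start codon are shown for the members with the highest and lowest RPF/RNA described below (Tfap2a and Snai1, and Msx1, Twist1 and Foxd3) and for Snai2 as the relative of Snai1, since peptide synthesis starts there. The windows are from GENCODE transcripts of GRCm38, 30 nt long with 9 nt before the start codon. Capitals mark the base at -3, the ATG and the base at 4.
Tfap2a: tccatgAaaATGCtttggaaactgacggat
Snai1: ctggccAacATGCcgcgctccttcctggtc
Snai2: gcagccAccATGCcgcgctccttcctggtc
Msx1: cggctcTgcATGGccccggctgctgctatg
Twist1: gcccgcGagATGAtgcaggacgtgtccagc
Foxd3: cgcggaGggATGAccctctccggcagcggc
Of the 10 members, 7 had a purine at -3, against 85.0% of 18751 transcripts with such a window, and 2 had a G at 4, against 50.6%. Sox10 was the only member with both, a combination found in 42.6% of transcripts. Of the windows shown, Msx1 had the G at 4 without the purine, and the other 5 had the purine without the G.

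Snai1 and Snai2 share the first 22 nt of their coding sequences, the longest stretch they have in common. Sox9 and Sox10, which both encode SoxE factors, share a longest stretch of 44 nt, shown because a read that falls within it could come from either gene. It starts at nt 247 of the coding sequence of Sox9 and at nt 244 of that of Sox10.
Sox9 and Sox10: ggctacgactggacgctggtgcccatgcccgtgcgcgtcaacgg
Counting every window of 28 nt in the counted coding sequence, 31 of 1434 windows of Sox9 and 35 of 1311 of Sox10 occur in another transcript of the table, in Sox9, Sox10, Sox2 or Sox18. Foxd3 had the most such windows, 81 of 1320, shared with Foxc2, Foxd1, Foxd2, Foxd4 and Foxl1. In RPF, Snai1 and Snai2 had none, and Tfap2a and Tfap2b had 2 each. In windows of 30 nt over the whole transcript, which RNA reads can cover, Foxd3 shared 72 of 2295, Snai2 56 of 1983, Tfap2b 23 of 5811 and Tfap2a 17 of 2807, and Snai1 again none.

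The first question was how much of each member was present, and how much of it was on ribosomes, in wild-type embryos. To compare genes, RPF counts were divided by the length of the counted coding sequence and RNA counts by the length of the transcript. Msx1, a homeobox gene of the neural plate border, and Twist1, a bHLH gene of migrating crest and head mesoderm, had the highest RNA levels of the members, 46.1 ± 1.3 and 43.7 ± 3.1 CPM per kb (SD, n = 3), both above 85% of the transcripts tested (percentiles 86.7 and 85.8). Sox9 (11.8 ± 1.4 CPM per kb), Snai1 (9.44 ± 0.22), Snai2 (7.72 ± 0.28) and Sox10 (6.58 ± 0.20) were near the middle, where the median of all transcripts tested was 10.2 CPM per kb of RNA. Foxd3 (4.47 ± 0.23), Tfap2a (2.55 ± 0.44), Tfap2b (2.07 ± 0.19) and Dlx2 (0.98 ± 0.27) were lower still in RNA per kb, in that order.

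The order in RPF per kb was different. Msx1 (41.7 ± 2.7 CPM per kb, SD, n = 3), Snai1 (41.3 ± 4.4), Twist1 (38.8 ± 2.0) and Sox9 (37.7 ± 2.7) had overlapping levels at the top, above the overall RPF median of 13.9 CPM per kb. Snai2 (18.4 ± 1.0), Sox10 (16.5 ± 2.0) and Tfap2a (14.8 ± 1.4) followed, and Tfap2b (5.25 ± 1.19), Foxd3 (3.96 ± 0.62) and Dlx2 (2.97 ± 0.51) had the lowest RPF per kb. The RPF level per kb of Snai1 thus overlapped that of Msx1, while its RNA level per kb was far lower.

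**Figure D1:**
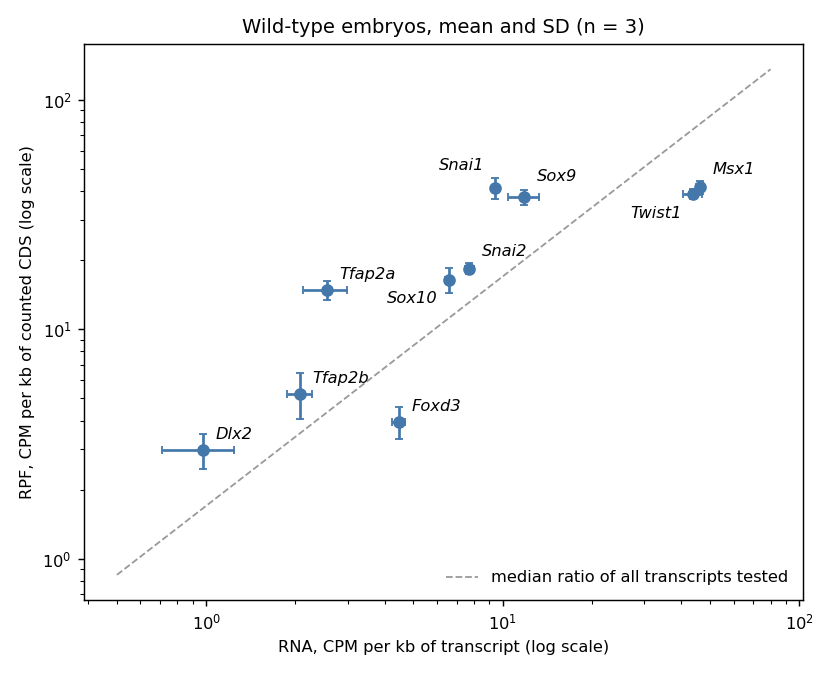
RPF per kb of counted coding sequence (vertical, CPM per kb, log scale) against RNA per kb of transcript (horizontal, CPM per kb, log scale) of the 10 members in wild-type embryos, as mean and SD of 3 embryos. The dashed line is the median ratio of all transcripts tested (1.70); Tfap2a and Snai1 lie farthest above it, and Msx1, Twist1 and Foxd3 lie below.

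The ratio of the 2 levels, RPF per kb over RNA per kb, separated the members into groups. Tfap2a had the highest ratio, 5.24 to 6.18 over the 3 wild-type embryos, higher than 97.0% of transcripts tested. Snai1 came next with 4.05 to 4.80, and Sox9 followed with 3.01 to 3.34. The ranges of these 3 genes did not overlap. Dlx2 (2.53 to 3.99), Tfap2b (1.88 to 2.99), Sox10 (2.25 to 2.72) and Snai2 (2.29 to 2.45) came next by their means, and the ranges of neighbours in that order overlapped. All 7 of these were above the median ratio of all transcripts tested, 1.70. Msx1 (0.83 to 0.97), Twist1 (0.87 to 0.92) and Foxd3 (0.77 to 0.95) had overlapping ratios below that median, at percentiles 21.7, 20.9 and 20.7. The ratios depend on the annotated transcript of each gene, since reads from shorter or longer isoforms were divided by the same length.

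Pairs of related genes differed in this ratio as well. The ratio of Snai1 was 1.84 ± 0.14 times that of Snai2 in wild-type embryos and 2.09 ± 0.30 times in LOF embryos (SD, n = 3 each), with overlapping ranges (1.68 to 1.96 and 1.75 to 2.29; two-sided exact permutation p = 0.3). The ratio of Tfap2a was 2.42 ± 0.78 times that of Tfap2b in wild-type embryos and 1.95 ± 0.57 times in LOF embryos (exact permutation p = 0.5), and that of Sox9 was 1.29 ± 0.13 times that of Sox10 in wild-type and 1.49 ± 0.38 times in LOF embryos (exact permutation p = 0.6). In each of the 6 embryos the first gene of each pair had the higher ratio, although with 3 embryos against 3 the permutation test of the genotypes cannot go below 0.1.

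The comparison of interest was between LOF and wild-type embryos. In ribosome occupancy, none of the 10 members passed FDR < 0.1 in RPF (edgeR), where 2.19% of all transcripts tested did. At an unadjusted p under 0.05 there was 1 member, against 13.7% of all transcripts; DESeq2 and limma-voom also called 0 members (2.12% and 2.62% of all transcripts), and limma-voom with sva called 1, Tfap2a (log2 fold change 0.32, FDR 0.093), where it called 10.4% of all transcripts. Of the fits run, limma-voom with sva used the tools closest to those named in the methods of the study, which give neither the model nor the number of surrogate variables. In mRNA abundance, 1 member rose, Tfap2a, against 5.02% of transcripts called in either direction and 1.77% called higher. Unadjusted p was under 0.05 for 3 members in RNA, against 17.0% of all transcripts. The log2 fold change was above 0 in 6 members in RPF (50.9% of all transcripts) and in 9 members in RNA (49.4% of all transcripts). The median log2 fold change of the members was 0.07 in RPF and 0.11 in RNA, beside 0.0036 and -0.0018 over all transcripts tested. Without LOF embryo 1 the RPF median of the members was 0.13 and without LOF embryo 2 it was 0.033, and the RNA median was 0.18 without LOF embryo 2. With the Y-linked covariate the RPF median of the members was -0.016. The members share no more than a range of -0.19 to 0.39 in RPF and -0.02 to 0.58 in RNA.

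**Figure D2:**
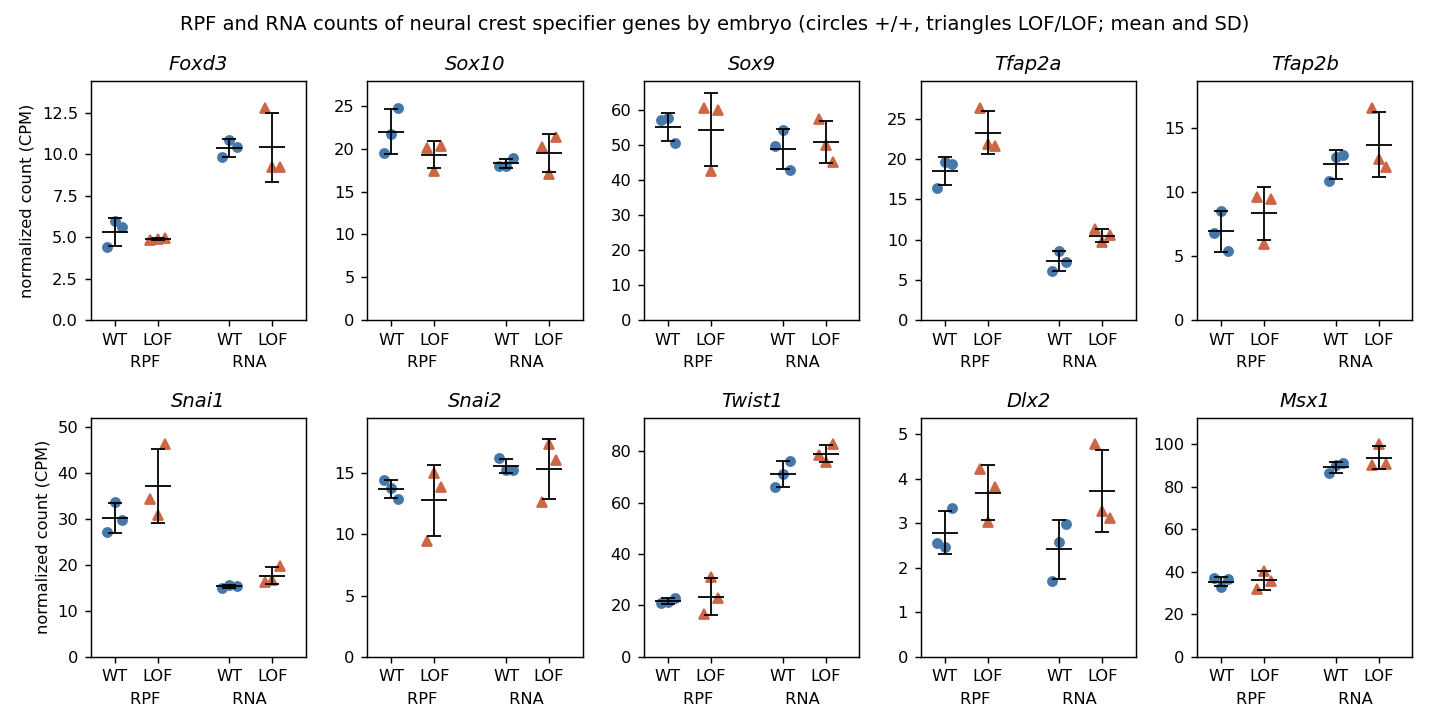
Normalized counts (CPM) of each member in RPF and RNA libraries, with 1 point per embryo (circles Rpl10a +/+, triangles Rpl10a LOF/LOF) and the mean and SD of 3 embryos. The triangles lie above all circles for Tfap2a in RPF and RNA and for Snai1 and Dlx2 in RNA, while Twist1 RPF is spread widely among LOF embryos.

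Tfap2a encodes the AP-2 alpha factor that acts at the neural plate border and in surface ectoderm. Its RNA was at 6.10, 8.59 and 7.23 CPM in wild-type embryos 1 to 3 and at 11.3, 9.67 and 10.5 CPM in LOF embryos 1 to 3. In RPF it was at 16.5, 19.7 and 19.4 CPM in wild-type and at 26.4, 21.9 and 21.6 CPM in LOF embryos. All LOF embryos were above all wild-type embryos in both kinds of library. The RNA rose 1.40-fold (95% interval 1.14 to 1.72; log2 fold change 0.49, SE 0.13, edgeR FDR 0.0972), and the RPF fold change was 1.26 with an interval of 1.04 to 1.52 (edgeR FDR 0.274). The RNA call lies close to the threshold and was lost in 12 of 18 alternative fits. Over the 18 fits the FDR was between 0.067 and 0.652 and the log2 fold change between 0.37 and 0.64. The call was lost without any single embryo other than wild-type embryo 2, and with a Y-linked covariate the log2 fold change was 0.39 (edgeR FDR 0.652).

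Tfap2b, which encodes AP-2 beta, had 10.8, 12.7 and 12.9 CPM of RNA in wild-type and 16.6, 12.5 and 11.9 CPM in LOF embryos. Its RPF was at 6.76, 8.54 and 5.42 CPM in wild-type and at 9.62, 5.93 and 9.42 CPM in LOF embryos. The genotypes overlapped in both, and the interval of the RPF fold change reached from 0.86 to 1.69. The RNA of Tfap2a relative to Tfap2b, per kb, was 1.23 ± 0.13 in wild-type and 1.59 ± 0.21 in LOF embryos, where the lowest LOF embryo (1.39) was just above the highest wild-type embryo (1.38; exact permutation p = 0.1, the smallest possible).

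Dlx2, a homeobox gene of crest cells that enter the pharyngeal arches, was the member with the fewest counts. Its RNA was at 1.69, 2.57 and 2.99 CPM in wild-type and at 4.77, 3.27 and 3.11 CPM in LOF embryos, so that the groups were separate by a narrow margin. The fold change in RNA was 1.49 with an interval of 1.05 to 2.13 (edgeR FDR 0.234), the highest estimate of the 10 members and the widest interval in RNA. Without LOF embryo 1 the Dlx2 RNA log2 fold change was 0.34, below that of Tfap2a (0.42). Without wild-type embryo 2 it was 0.60, again below that of Tfap2a (0.64). In RPF the values were 2.56, 2.46 and 3.34 CPM in wild-type and 4.23, 3.03 and 3.80 CPM in LOF embryos, and the groups overlapped. Msx1 was measured far more precisely: 86.3, 90.3 and 91.0 CPM of RNA in wild-type and 90.3, 100.1 and 90.9 CPM in LOF embryos, and an RNA fold change of 1.05 with an interval of 0.97 to 1.14. In RPF it was at 36.9, 32.8 and 36.6 CPM in wild-type and at 31.8, 40.4 and 35.7 CPM in LOF embryos, with LOF embryos 1 and 2 on either side of the wild-type range.

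Among the specifier genes, Foxd3, a forkhead gene of premigratory crest, had 9.82, 10.9 and 10.5 CPM of RNA in wild-type and 12.8, 9.21 and 9.22 CPM in LOF embryos. LOF embryo 1 was above and the other 2 were below the wild-type range. Foxd3 RPF lay between 4.81 and 4.95 CPM in LOF embryos and between 4.39 and 5.97 CPM in wild-type embryos, within 33 to 54 counts a library. Sox9, which promotes crest formation and later cartilage, had 49.6, 54.2 and 42.7 CPM of RNA in wild-type and 57.3, 49.9 and 45.2 CPM in LOF embryos. Its RPF was at 57.0, 57.7 and 50.5 CPM in wild-type and at 60.6, 42.5 and 60.0 CPM in LOF embryos, where LOF embryo 2 was below and the other 2 were above every wild-type embryo. The Sox9 fold changes had intervals of 0.81 to 1.20 in RPF and 0.89 to 1.23 in RNA. With the Y-linked covariate the log2 fold change of Sox9 was -0.32 in RPF, beside -0.018 without it (edgeR FDR 0.619 and 0.969), and -0.39 in RPF/RNA, beside -0.084.

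Sox10, needed for glial and pigment cells, was the member with the lowest RPF estimate. In RPF it was at 19.5, 21.8 and 24.8 CPM in wild-type and at 20.1, 17.5 and 20.4 CPM in LOF embryos (fold change 0.88, interval 0.73 to 1.06, edgeR FDR 0.556). Its RNA was at 17.9, 18.0 and 18.9 CPM in wild-type and at 20.3, 17.0 and 21.3 CPM in LOF embryos. The genotypes overlapped in each kind of library, with 2 of the 3 LOF embryos above the wild-type range in RNA. Without wild-type embryo 3 the Sox10 RPF log2 fold change was -0.092, and that of Snai2 was lower (-0.13). Without LOF embryo 2 it was -0.12 for Sox10 and -0.20 for Snai2.

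The Snail genes and Twist1 encode factors that promote the epithelial-to-mesenchymal transition. Snai1 RNA was at 14.9, 15.5 and 15.5 CPM in wild-type and at 16.4, 16.7 and 19.7 CPM in LOF embryos, which did not overlap (fold change 1.14, interval 0.99 to 1.31, edgeR FDR 0.352). Its RPF was at 27.2, 33.7 and 29.8 CPM in wild-type and at 34.4, 30.8 and 46.2 CPM in LOF embryos, with LOF embryo 3 the highest in both (RPF fold change 1.24, interval 0.99 to 1.55, edgeR FDR 0.394). Without LOF embryo 2, which was within the wild-type range, the RPF log2 fold change of Snai1 was 0.44 (edgeR FDR 0.072), in a fit that called 11.5% of all transcripts, whereas without LOF embryo 3 it was 0.11 (edgeR FDR 0.823) and with the Y-linked covariate -0.033 (edgeR FDR 0.972). Snai2 RNA was at 16.3, 15.3 and 15.3 CPM in wild-type and at 12.6, 17.4 and 16.1 CPM in LOF embryos. In RPF it was at 14.4, 13.8 and 12.9 CPM in wild-type and at 9.47, 15.0 and 13.9 CPM in LOF embryos, with LOF embryo 1 the lowest in both kinds of library.

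Twist1 had 66.1, 71.2 and 76.2 CPM of RNA in wild-type and 78.6, 75.8 and 82.7 CPM in LOF embryos. LOF embryo 2 was just within the wild-type range and the other 2 were above it (fold change 1.10, interval 1.00 to 1.21, edgeR FDR 0.277). Twist1 RPF was nearly the same in the 3 wild-type embryos, 20.8, 21.2 and 22.9 CPM, but was at 16.6, 31.0 and 22.7 CPM in LOF embryos 1 to 3. LOF embryo 1 was thus below, LOF embryo 2 above and LOF embryo 3 within the wild-type range, and the RPF fold change of 1.09 had an interval of 0.83 to 1.43. When only the 4 embryos with high Y-linked counts were compared, which leaves LOF embryo 2 alone against 3 wild-type embryos, Twist1 RPF was higher by 0.52 (edgeR FDR 0.042) and Sox9 RPF was lower, with a log2 fold change of -0.37 (edgeR FDR 0.082). This fit called 3.86% of all transcripts and was chosen after the data had been seen. The values rest on 1 LOF embryo, assumed to vary like the wild-type embryos, and it is the embryo whose Twist1 and Sox9 RPF already lay outside the wild-type range.

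**Figure D3:**
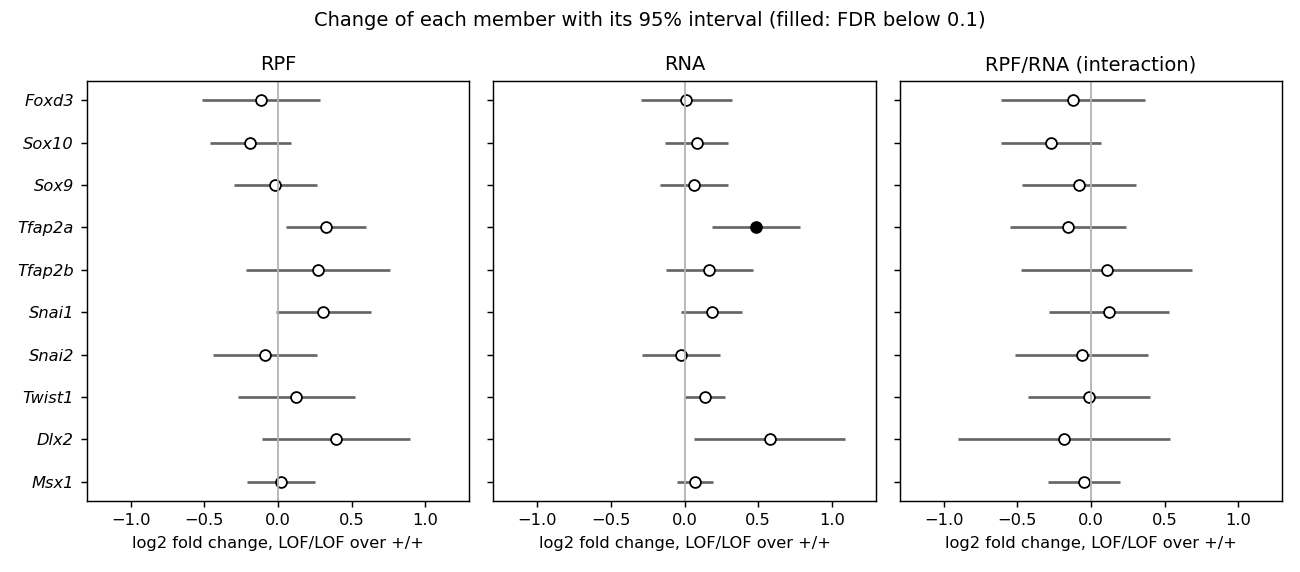
Log2 fold change of LOF/LOF over +/+ embryos (horizontal) with its 95% interval for each member in RPF, RNA and RPF/RNA; filled points are below FDR 0.1 by edgeR. Tfap2a in RNA is the only filled point, and all 10 intervals for RPF/RNA cross 0.

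Groups that did not overlap with LOF higher were 1 member in RPF (Tfap2a), against 9.92% of transcripts tested, and 3 members in RNA (Tfap2a, Snai1 and Dlx2), against 10.2% of transcripts. Summed over the 10 members, RNA was 280 to 299 CPM in wild-type and 311 to 321 CPM in LOF embryos, while summed RPF was 206 to 218 CPM in wild-type and 213 to 239 CPM in LOF embryos. Msx1, Twist1 and Sox9 make up most of the RNA sums.

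Single LOF embryos left the wild-type range in different members. In RNA, LOF embryo 1 was above the wild-type range for 8 members (28.8% of all transcripts tested) and below it for 1, Snai2 (31.3%). LOF embryos 2 and 3 were above it for 5 members each (27.7% and 32.2% of all transcripts) and below it for 2 and 1 (29.0% and 34.5%). In RPF, LOF embryos 1, 2 and 3 were above for 5, 4 and 5 members (35.5%, 31.2% and 34.2% of all transcripts) and below for 3, 2 and 0 (35.6%, 32.0% and 33.2%). The members above the RPF range in LOF embryos 1 and 3 were in both cases Sox9, Tfap2a, Tfap2b, Snai1 and Dlx2, and the members above it in LOF embryo 2 were Tfap2a, Snai2, Twist1 and Msx1. LOF embryos 1 and 3 are the 2 with low Y-linked counts, and all 3 LOF embryos are set against the same wild-type range. The SD of the log2 RPF values was larger in LOF than in wild-type embryos for 8 members, but also for 70.5% of all transcripts tested.

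RPF/RNA per embryo addresses whether ribosome occupancy moved apart from mRNA level. The interaction test over the 12 libraries did not pair the 2 libraries of an embryo. A fit with an embryo block, which pairs them, called 0 members and 0 transcripts. In the unpaired test, none of the 10 members passed FDR < 0.1 (edgeR), and 0.0% of all transcripts did. Unadjusted p was under 0.05 for 0 members and for 559 transcripts (4.44%), and DESeq2 called 4 transcripts, none of them a member. The log2 fold change was above 0 in 2 members, Tfap2b and Snai1, against 52.0% of all transcripts, and the median of the members was -0.07 beside 0.0066 over all transcripts tested. Without LOF embryo 1 that median was -0.021, and without LOF embryo 2 it was -0.13. With the Y-linked covariate, in a fit that rests mainly on LOF embryo 2, the RPF/RNA log2 fold changes of Tfap2b and Snai1 were below 0 (-0.22 and -0.12). That of Twist1 was above 0 (0.32).

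**Figure D4:**
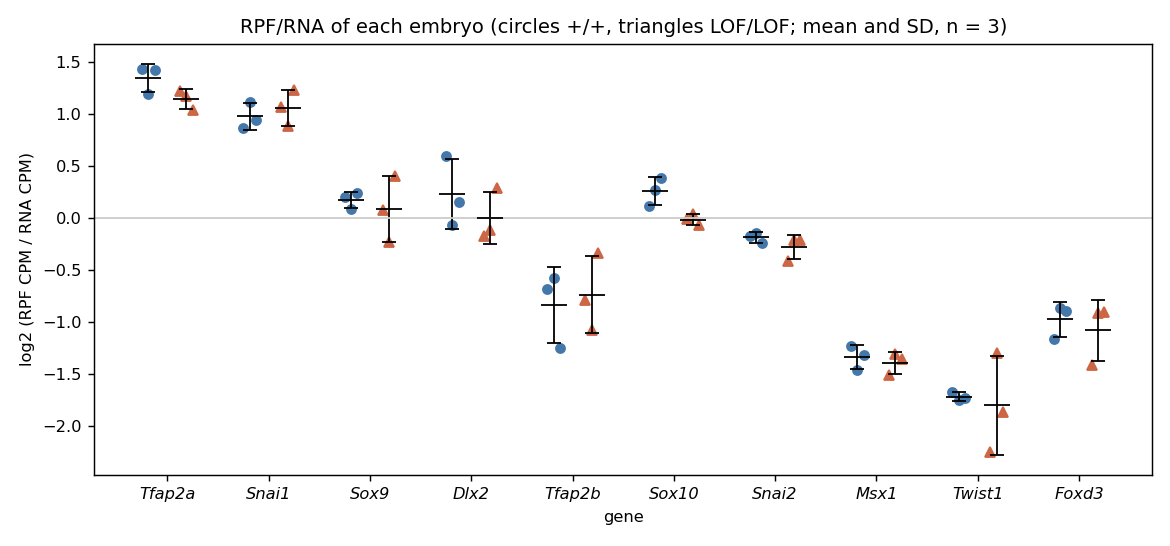
Log2 ratio of RPF CPM over RNA CPM in each embryo (vertical) for the 10 members in the order of their wild-type ratio per length (horizontal), with circles for Rpl10a +/+, triangles for Rpl10a LOF/LOF, and mean and SD of 3 embryos. Sox10 is the only member with all triangles below all circles.

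Sox10 was the only member whose RPF/RNA did not overlap between genotypes, with LOF lower, as for 5.22% of transcripts tested. Its RPF CPM per RNA CPM was 1.08, 1.21 and 1.31 in wild-type and 0.99, 1.03 and 0.95 in LOF embryos (exact permutation p = 0.1, the smallest possible). The fitted fold change was 0.83 with an interval of 0.65 to 1.05 (edgeR FDR 1.0). With the embryo block the Sox10 log2 fold change was -0.29 (SE 0.13, edgeR FDR 0.708), beside -0.27 (SE 0.16) without it. Twist1 RPF CPM per RNA CPM stayed between 0.30 and 0.32 in wild-type embryos and was 0.21, 0.41 and 0.28 in LOF embryos. For Tfap2a, the member with the RNA call, the ratio was 2.70, 2.29 and 2.68 in wild-type and 2.34, 2.26 and 2.05 in LOF embryos, with a fold change of 0.90 and an interval of 0.68 to 1.18. Msx1 had the narrowest interval in RPF/RNA, 0.82 to 1.15, and Dlx2 the widest, 0.53 to 1.45.

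The genes that act beside the members in crest formation were counted from lists chosen by function. Of 16 tested genes of the neural plate border and dorsal neural tube, 1 rose in RNA, 1 fell, and none was called in RPF. Dlx5, a border homeobox gene, rose by 0.83 on the log2 scale in RNA (SE 0.18, edgeR FDR 0.047), and Msx3, a dorsal neural tube relative of Msx1, fell by 0.62 (SE 0.13, edgeR FDR 0.033). Of 17 tested other crest regulators, such as Ets1, Id and Myc family genes, and of 8 tested genes of crest derivatives, none was called in RPF or RNA by edgeR; their median log2 fold changes in RNA were 0.0075 and 0.03. Of 26 receptor and adhesion genes of migrating crest, Plxna1, a semaphorin receptor, rose in RNA (0.31, SE 0.06, edgeR FDR 0.032), and Pdgfra, a PDGF receptor, fell (-0.22, SE 0.06, edgeR FDR 0.0972). Of 16 tested genes of arch and frontonasal mesenchyme, Prrx2, a homeobox gene, rose in RNA (0.28, SE 0.08, edgeR FDR 0.094), and Crabp1, which binds retinoic acid, fell (-0.25, SE 0.05, edgeR FDR 0.029). None of the genes on these lists was called in RPF/RNA.

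Markers of tissues that surround the crest were measured in the same way. Of 12 surface ectoderm markers, Wnt6 rose in RNA (0.34, SE 0.09, edgeR FDR 0.093), and the summed RNA of the list overlapped between genotypes (863 to 948 CPM in wild-type, 818 to 982 CPM in LOF). Of 10 neural tube markers, Hes5, a Notch target, fell in RNA (-0.58, SE 0.09, edgeR FDR 0.012), with summed RNA of 276 to 299 CPM in wild-type and 242 to 390 CPM in LOF. Of 12 markers of cranial and paraxial mesoderm, Msgn1, a regulator of presomitic mesoderm, fell in RPF (-0.55, SE 0.13, edgeR FDR 0.085), and the summed RNA was 137 to 145 CPM in wild-type and 129 to 139 CPM in LOF. The summed RPF of these mesoderm markers was lower in every LOF embryo (82.3 to 92.1 CPM) than in any wild-type embryo (94.5 to 103 CPM). The median RPF log2 fold change of the 12 markers was 0.036, so the lower sum was not a fall of most of them. The part of this sum in the results for the members was not tested. None of the markers in these 3 lists was at 0 in every library.

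Larger differences lay outside the crest and its neighbours. All 10 markers of visceral endoderm and yolk sac fell in RNA and 8 of them in RPF, among them Apoa4, Amn, Apoa1 and Ttr with RNA log2 fold changes of -1.66, -1.38, -1.39 and -1.34 (edgeR FDR 0.010, 0.012, 0.024 and 0.027). Their summed RNA was 3165 to 3982 CPM in wild-type and 891 to 2234 CPM in LOF embryos. Of 8 primitive blood markers, 4 rose in RPF (Hbb-y, Klf1, Alas2 and Slc4a1) and 2 in RNA (Alas2 and Slc4a1), with summed RNA of 416 to 1741 CPM in wild-type and 1573 to 2628 CPM in LOF. Summed RPF of the blood markers did not overlap, at 847 to 2847 CPM in wild-type and 3556 to 5839 CPM in LOF. None of these markers was at 0 in every library. Their part in the results for the members was not tested.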

How the data were processed

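Ribosome profiling and RNA-seq were performed on whole E8.5 embryos, 3 Rpl10a +/+ and 3 Rpl10a LOF/LOF. The authors trimmed and demultiplexed reads with UMI-tools and cutadapt, discarded rRNA, tRNA and snRNA reads with Bowtie2, aligned the rest to GRCm38/mm10 GENCODE transcripts, and removed PCR duplicates by molecular identifiers. The deposited values are raw counts per transcript: for RPF, reads with the A site in the coding sequence without its first 15 and last 5 codons; for RNA, reads on the entire transcript. The labels name each embryo by genotype, replicate number and an embryo number that its RPF and RNA libraries share. Symbols, positions and sequences came from GENCODE M21 (GRCm38), which held 21976 of the 22467 transcripts in the same version, 477 in another version, and lacked 14.

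Transcripts above 0.75 CPM in 3 or more RPF libraries were tested; this filter, separate TMM normalization of RPF and RNA, and the FDR threshold of 0.1 follow the methods of the study. Library totals were those of the transcripts kept. Genotypes were compared with edgeR 4.0.16 (quasi-likelihood, R 4.3.3; Benjamini-Hochberg over 12576 transcripts) in 6 RPF libraries, 6 RNA libraries, and, for RPF/RNA, as the interaction of genotype and library kind in 12 libraries. Standard errors were derived from the F statistic, and intervals are at 95%. Per-embryo values are TMM-normalized CPM, and single values were compared by exact two-sided permutation over embryos. Alternatives used DESeq2 1.42.0, limma-voom 3.58.1 alone, limma-voom with sva 3.50.0 and 2 surrogate variables (as named in the methods of the study, but without locfdr), RLE factors, library totals only, other filters, replicate and embryo blocks, a Y-linked covariate, and each embryo left out. Totals over all transcripts, a correction for the GC content of the 5'UTR, and the embryos with high Y-linked counts alone were added after seeing the data. On simulated data the steps were tested for bias in fold change and for recovery of changed transcripts. The share recovered is not given here, so the lack of calls in RPF/RNA does not show that small changes were absent.

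The members and gene lists were chosen with earlier results of these data known. All members were named, and from other lists the genes past FDR < 0.1, at most 4 per list by RNA FDR. Each genotype had 3 embryos, and the labels do not say whether embryos shared a litter.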

Additional observations from a re-analysis of the deposited data

How the results depend on the processing

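No member was called in RPF/RNA in any of 19 alternatives, and the median log2 fold changes of the members kept their sign in all 18 alternatives in RNA and all 19 in RPF/RNA. In RPF, 0 members were called by default, 1 with limma-voom and sva (Tfap2a, log2 fold change 0.32, FDR 0.093; 10.4% of all transcripts), 2 with only the embryos of high Y-linked counts (Twist1 and Sox9; 3.86% of all transcripts), and 0 to 1 without each embryo in turn (1 without LOF embryo 2, Snai1, where 11.5% of all transcripts were called). The RPF median of the members was -0.016 with the Y-linked covariate, a fit that rests mainly on LOF embryo 2, beside 0.073. Without each embryo in turn the medians ranged from 0.033 to 0.13 in RPF, 0.086 to 0.18 in RNA and -0.13 to -0.021 in RPF/RNA. In RNA, the 1 call (Tfap2a) was lost, to 0, with library totals only, the stricter filter (CPM > 2, FDR 0.1001), DESeq2 (FDR 0.128), the replicate block (FDR 0.158), the Y-linked covariate, totals over all transcripts (FDR 0.101) and the embryos of high Y-linked counts (FDR 0.558), and leaving out embryos gave 0 to 1. It was kept with RLE factors, limma-voom with or without sva, no filter and the correction for GC content.

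Tfap2a RNA, the 1 value called by default, kept its direction in every alternative. Among the other values, Snai1, Twist1 and Sox9 in RPF were each called in 1 alternative and changed direction in at least 1 other. With the Y-linked covariate the log2 fold change became -0.12 for Tfap2b, -0.033 for Snai1 and 0.0014 for Snai2 in RPF, -0.11 for Foxd3, -0.11 for Sox10 and 0.12 for Snai2 in RNA, and -0.22 for Tfap2b, -0.12 for Snai1 and 0.32 for Twist1 in RPF/RNA. With the embryos of high Y-linked counts it became -0.21 for Tfap2b and 0.13 for Snai2 in RPF, -0.18 for Foxd3, -0.11 for Sox10 and 0.16 for Snai2 in RNA, and 0.072 for Foxd3, -0.23 for Tfap2b, -0.087 for Snai1, 0.43 for Twist1 and 0.025 for Msx1 in RPF/RNA. With limma-voom and sva, RPF/RNA became -0.032 for Tfap2b, 0.069 for Snai2, 0.17 for Twist1 and 0.023 for Msx1, and with the correction for GC content 0.040 for Twist1. Foxd3 RNA was -0.0016 with library totals only, -0.0023 with limma-voom and -0.024 with the replicate block. Without each embryo in turn, the values that changed sign ranged from -0.10 to 0.13 (Sox9), -0.067 to 0.094 (Msx1), -0.20 to 0.067 (Snai2) and -0.11 to 0.30 (Twist1) in RPF, from -0.18 to 0.11 (Foxd3), -0.14 to 0.11 (Snai2), -0.035 to 0.16 (Sox9) and -0.0066 to 0.24 (Tfap2b) in RNA, and from -0.12 to 0.0047 (Msx1), -0.088 to 0.23 (Tfap2b), -0.22 to 0.076 (Foxd3), -0.28 to 0.15 (Twist1) and -0.24 to 0.043 (Sox9) in RPF/RNA. The causes were not tested. In wild-type embryos the highest ratio per length was 6.63 times the lowest, and 6.96 times with the whole coding sequence as the length.

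Over all transcripts tested, calls in RPF numbered 276, beside 437 without a filter, 1306 with sva, 22 with the Y-linked covariate, 486 with the embryos of high Y-linked counts and 4 to 1449 without each embryo (4 without wild-type embryo 2, 1449 without LOF embryo 2). RNA calls numbered 631, beside 35, 100 and 138 to 594 under the last 3 of these. Calls in RPF/RNA numbered 0, beside 4 with DESeq2, 2 with the embryos of high Y-linked counts and 26 without LOF embryo 2. The replicate numbers belong to different embryos, and the labels do not say that they pair the samples. The deviations of same-numbered embryos correlated at -0.10 to 0.08 across transcripts, and those of differently numbered embryos at -0.10 to 0.17. With so few embryos these values cannot show whether any of them shared a litter or batch. Apart from Tfap2a RNA, the replicate block changed no call of a member.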
